A study of Mus musculus with 8 samples.

Results

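Leukocytes of the mouse brain 24 h after an ischemic stroke were compared with leukocytes of control brain, cluster by cluster, in 3 of the 8 single-cell RNA-seq libraries of the series. UMIs (unique molecular identifiers, which count captured transcripts) were added up over the cells of each cluster, library by library. Of the 21 clusters that the authors had named, 7 held at least 30 cells in each of the 3 libraries: the microglia clusters Micro_1, Micro_2 and Micro_3, CAM_1 and CAM_2 (named for CNS-associated macrophages), Macro_2 (macrophages) and Tc (T cells). They hold 10173 of the 12347 annotated cells of these libraries and of the 32457 annotated cells of the whole series. Cluster shares were not compared.

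All 3 libraries came from adult male C57BL/6 mice without a genetic change. Cells were CD45+ leukocytes of dissected brain parenchyma that an intravenously injected CD45 antibody had not stained, a gate meant to leave out blood cells. The control group is 1 library, labelled control, and whether those mice were naive or sham-operated could not be settled. The 24 h group is 2 libraries, replicate 1 and replicate 2, from mice with transient occlusion of the middle cerebral artery. The number of mice behind a library was not found, so each library counts as 1 sample.

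Microglia are the resident macrophages of the brain. In the resting state they express a known set of genes that includes the purinergic receptor P2ry12, which lets their processes sense nucleotides from damaged cells, and Tmem119 and Cx3cr1. Near an injury they lower this set and express genes for lipid handling, phagocytosis and cytokines, a state known from demyelination and neurodegeneration as disease-associated. CNS-associated macrophages sit at the vessels, meninges and choroid plexus and are known by markers such as Mrc1, Lyve1, Pf4 and Cd163.

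In both 24 h libraries the microglia clusters and both CAM clusters held more RNA of a few lipid, scavenger and cytokine genes, such as Lpl, Msr1 and Tnf, than the control, and less of P2ry12 and Gpr34, genes of resting microglia. Most other genes of resting microglia were not 2-fold lower in both libraries in Micro_1 and Micro_2. In the 3 microglia clusters summed, Lpl, a lipase, stood at 7.72, 161 and 192 counts per 1000000 UMIs (CPM) in the control, replicate 1 and replicate 2, Tnf at 44.0, 162 and 459, and P2ry12 at 8149.8, 3353 and 349. The change in CAM_1 differed from that of microglia in 73 of 10283 genes, while 0 genes passed for CAM_2 and 2 each for Macro_2 and Tc. Cells may have moved between CAM_1 and the microglia clusters, or the mix of cells in CAM_1 may have changed. Neither can be told apart from a change within cells. The 24 h libraries differed from each other by more than replicate 1 differed from the control, which limits every one of these results.

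Replicate 2 stood apart from the other 24 h library and from the control in several technical measures. The control and replicate 1 held 7920673 and 10002179 UMIs, and replicate 2 held 10053557, but the median annotated cell held 1620, 1696.5 and 1083 UMIs. Replicate 2 is listed with the same reagent version as the control, yet its cell barcodes belong to another set: 4 of its 4348 barcodes began with AAACCC and 0 with AAACCT, while 11 of 4592 control barcodes and 13 of 4960 in replicate 1 began with AAACCT and 0 with AAACCC. The control and replicate 1 shared 25 barcodes, and replicate 2 shared 0 with either. Red blood cell genes (5 markers) summed to 0, 0 and 732 CPM in microglia of the control, replicate 1 and replicate 2, and 4 oligodendrocyte markers to 8.86, 7.12 and 169.9 CPM. The share of genes at least 2-fold from the control in the summed microglia clusters was 7.35% in replicate 1 and 54.2% in replicate 2, and 53.4% of genes were at least 2-fold apart between the 24 h libraries themselves. Replicate 2 also came with another gene list, of 31053 genes against 32285 for the control and replicate 1. The lists shared 30406 identifiers, 597 of them under another symbol. Each result is therefore given per library. Whether the reagents, the gene list or the handling of replicate 2 set a difference was not tested.

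**Figure D1:**
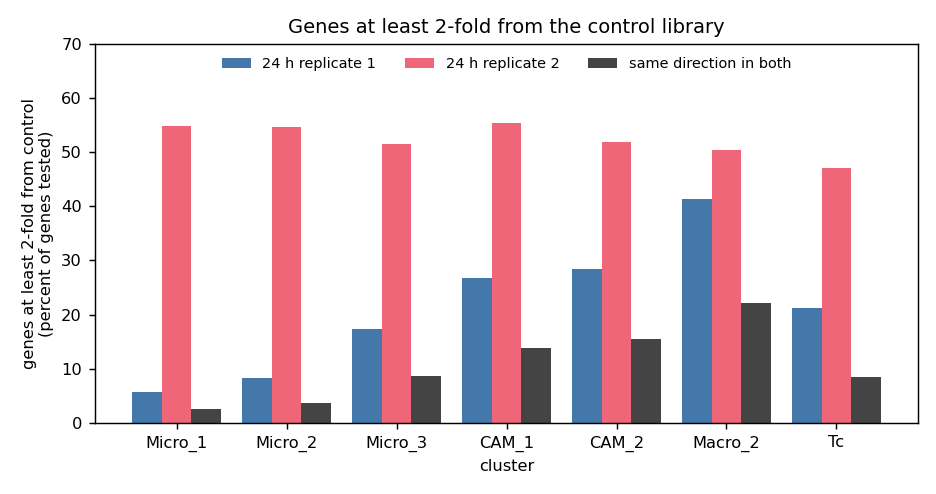
Percent of tested genes at least 2-fold from the control library in each of the 7 clusters (bars), for replicate 1, for replicate 2, and for genes on the same side in both. In Micro_1 replicate 1 reaches 5.74% and replicate 2 reaches 54.8%, and replicate 2 is the larger in all 7 clusters.

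The names of the clusters were checked against marker lists, whose levels are summed CPM on the library size scale. The 4 T cell markers (Cd3e, Cd3g, Trbc2, Trac) summed to 6698, 6461 and 2972 CPM in Tc in the control, replicate 1 and replicate 2, and to at most 15.3 CPM in CAM_1, CAM_2 and Macro_2. In CAM_1 the 7 microglia markers summed to 25483, 11899.5 and 5501 CPM and the 7 border macrophage markers to 49.8, 8.66 and 645 CPM. In CAM_2 the same lists summed to 33024, 12583 and 4126 CPM and to 20.4, 18.7 and 812 CPM. In all 3 libraries both brain CAM clusters thus carried far more RNA of microglia markers than of the markers their name stands for, and they are called by their cluster names below. Macro_2 held 1098, 215 and 538 CPM of border macrophage markers, 629.8, 1213 and 1391 CPM of monocyte markers and 3940.4, 1421 and 957 CPM of microglia markers.

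With 1 control library, edgeR's quasi-likelihood test must assume that the control varies like the 24 h libraries, and 1 residual degree of freedom is left. It called 0 genes in each of the 7 clusters and in the summed microglia clusters (Micro_1, Micro_2 and Micro_3 together) where a call needs a change of at least 2-fold and an adjusted p (Benjamini-Hochberg) under 0.05. The share called was 0% of the genes tested throughout. The authors' microglia cluster stress_Micro held 14, 11 and 479 cells in the control, replicate 1 and replicate 2. It had too few cells to compare and is not in the sum, so these cells of replicate 2 lie outside all microglia values. At an unadjusted p under 0.05 the edgeR test counted 79 of 9636 genes in Micro_1, 103 of 9645 in Micro_2, 158 of 8369 in Micro_3 and 132 of 6585 in CAM_1. It counted 169 of 4447 in CAM_2, 132 of 3236 in Macro_2, 12 of 973 in Tc and 195 of 10877 in the summed microglia. Each share lay below 0.05, the share expected with no change, so the counts show no excess of small p-values. DESeq2 called 1, 1, 13, 17, 1, 0 and 0 genes in the same clusters in that order, and 11 in the summed microglia. On library size scaling edgeR called 8 genes in CAM_2 and 3 each in Micro_3 and the summed microglia. For this reason the text describes genes that were at least 2-fold from the control in the same direction in both 24 h libraries, which is a description and no test. Both libraries are set against the same control, so they are not independent of each other.

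By that measure 348 of 10877 genes were higher and 72 were lower in the summed microglia (3.2% and 0.662% of genes tested). Taken singly, replicate 1 had 4.50% of genes higher and 2.85% lower there, and replicate 2 had 29.5% and 24.7%. With so many genes away in replicate 2, some overlap arises without a shared change. Whether the counts in both libraries exceed it was not tested, so they do not show that the changes repeat, least of all for the lower genes. Micro_1 had 191 higher and 58 lower (1.98% and 0.602% of 9636), Micro_2 had 270 and 80 (2.8% and 0.829% of 9645), and Micro_3 had 492 and 236 (5.88% and 2.82% of 8369). CAM_1 had 523 and 392 (7.94% and 5.95% of 6585), CAM_2 had 382 and 307 (8.59% and 6.9% of 4447), Macro_2 had 480 and 237 (14.8% and 7.32% of 3236), and Tc had 49 and 34 (5.04% and 3.49% of 973). Other genes were at least 2-fold away in opposite directions in the 2 libraries. These were 152 in the summed microglia, 115 in Micro_1, 198 in Micro_2, 208 in Micro_3, 186 in CAM_1, 115 in CAM_2, 102 in Macro_2 and 37 in Tc. In the summed microglia, Micro_1, Micro_2 and Tc they outnumbered the genes lower in both. The clusters differ in depth and in genes tested, so their percentages do not rank the clusters. Scaling by library size instead of TMM (trimmed mean of M values) turned the split toward higher genes, to 288 and 28 in Micro_1, 588 and 160 in Micro_3, 690 and 276 in CAM_1 and 468 and 242 in CAM_2, and toward lower genes in Tc, to 42 and 48. On the log2 scale, library size scaling moved all ratios of replicate 1 to the control up by 0.034 (Tc) to 0.178 (Macro_2) relative to TMM, and those of replicate 2 by −0.433 (Tc) to 0.432 (Micro_1).

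Most of these genes belonged to 1 cluster. Of the 1649 genes that were higher in any cluster, 1217 were so in exactly 1 of the 7, 432 in at least 2 and 87 in at least 4. Of the 950 lower genes, 681 were so in exactly 1, 269 in at least 2 and 22 in at least 4. Only 844 of the 10105 genes were deep enough to be tested in all 7 clusters, so a gene counted in 1 cluster may not have been measurable in another. No gene was higher in all 7, and 2 were lower in all 7, P2ry12 and Selenop. Across Micro_1, Micro_2 and Micro_3, 40 genes were higher in all of them, 23 of which were also higher in CAM_1 and CAM_2, and 7 were lower in all of them, 4 of which were also lower in CAM_1 and CAM_2.

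**Figure D2:**
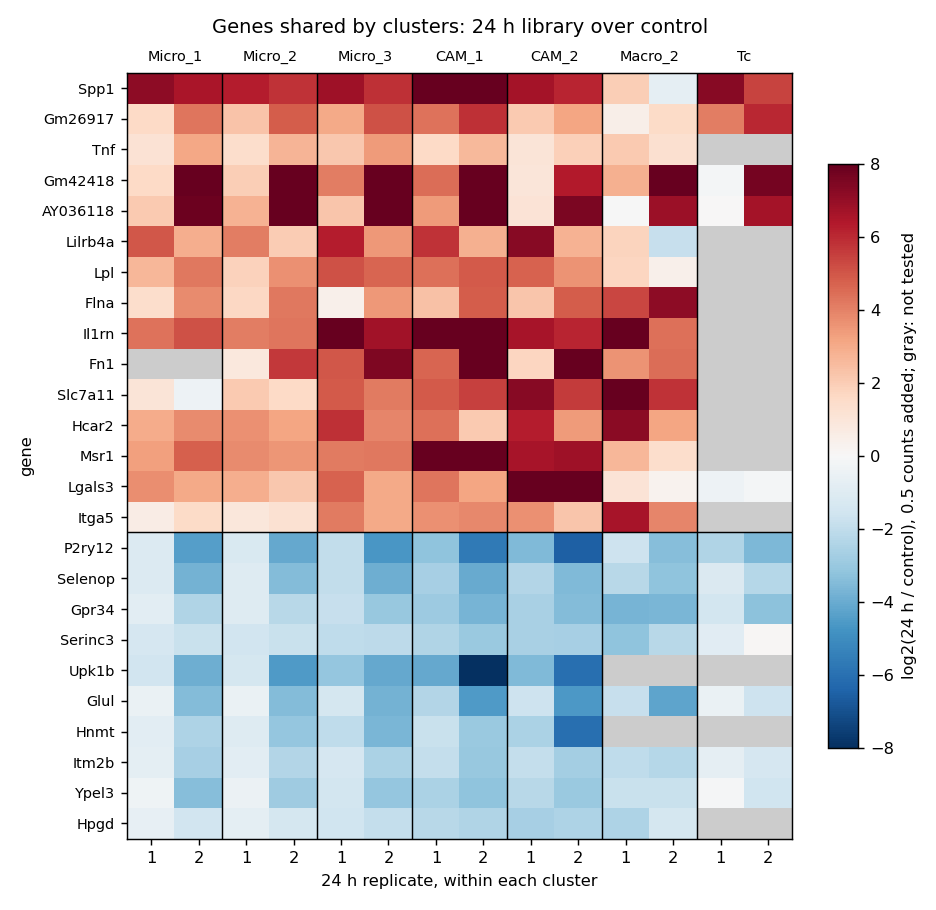
Log2 ratio of each 24 h library to the control (colour, 0.5 counts added, TMM scale) for the 15 genes that were higher and the 10 that were lower in the most clusters, with replicate 1 and replicate 2 side by side within each cluster and gray where a gene was not tested. Spp1 is higher in 6 clusters and P2ry12 lower in 7.

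The genes that were higher in the most clusters fall into 5 groups by what they are known to do. Spp1, Lpl, Msr1 and Lgals3 belong to lipid handling, matrix and phagocytosis. Tnf, Il1rn, Hcar2 and Lilrb4a belong to cytokine signalling and its restraint. Slc7a11, the cystine transporter that feeds glutathione synthesis, stands alone. Itga5, Fn1 and Flna belong to adhesion and the cytoskeleton. Gm26917, Gm42418 and AY036118 are noncoding transcripts of one stretch of chromosome 17. Levels below are CPM on the TMM scale, over the UMIs of the genes tested in the cluster, unless another scale is named. They are always in the order control, replicate 1 and replicate 2, and the counts of 1 control library carry no replicate error.

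Spp1, which encodes the secreted matrix protein osteopontin, was at least 2-fold higher in both 24 h libraries in 6 of the 7 clusters. It stood at 2.62, 408 and 269 CPM in Micro_1, 4.49, 374 and 268 in Micro_2 and 5.10, 632 and 327 in Micro_3. In CAM_1 it stood at 3.03, 2238 and 979 CPM and in CAM_2 at 5.89, 771 and 522, with both 24 h libraries far above the control. DESeq2 called it higher in Micro_1 (log2 7.02, SE 1.16, adjusted p = 1.61e-05), Micro_2 (log2 6.15, SE 1.12, adjusted p = 0.000395), Micro_3 (log2 6.53, SE 1.22, adjusted p = 0.000212) and CAM_1 (log2 9.04, SE 1.75, adjusted p = 0.000539), while edgeR did not (log2 6.60, SE 1.97, adjusted p = 0.486 in the summed microglia). Macro_2 was the exception, with 246, 976 and 151 CPM, above the control in replicate 1 and below it in replicate 2.

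Spp1 was also present at a very high level in another cluster, and free RNA can enter any droplet. That cluster, SAMC, had too few control cells to compare (1, 301 and 120 cells in the control, replicate 1 and replicate 2). It held 98336 Spp1 UMIs in replicate 1 and 8602 in replicate 2, at 106398 and 35312 CPM. In Tc, Spp1 was found in 0%, 36.4% and 27.1% of cells, at 0, 1069 and 289 CPM. Whether Tc cells made this RNA themselves was not tested. In Micro_1 the share was 0.376%, 41.7% and 24.3%, in Micro_2 0.667%, 43.1% and 25.7%, in Micro_3 0.593%, 54.4% and 31.1% and in CAM_1 0.452%, 61.7% and 43.0%. The median cell held 1245, 1207 and 1935 UMIs in Tc and 1628, 1471 and 805 in Micro_1, so the depths differ in replicate 2. The exact binomial interval of the Tc share ran from 20.4% to 54.9% in replicate 1 and from 19.7% to 35.5% in replicate 2, which takes in the shares of Micro_1 and Micro_2 in both libraries. The shares of Micro_3 also lay inside these intervals, and those of CAM_1 lay above them in both 24 h libraries. These intervals cover counting error over cells only, that of replicate 1 is wide, and the depths differ in replicate 2. They therefore cannot decide whether the share of cells with Spp1 differed between the microglia clusters and T cells. The part of free RNA in these shares was not tested.

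**Figure D3:**
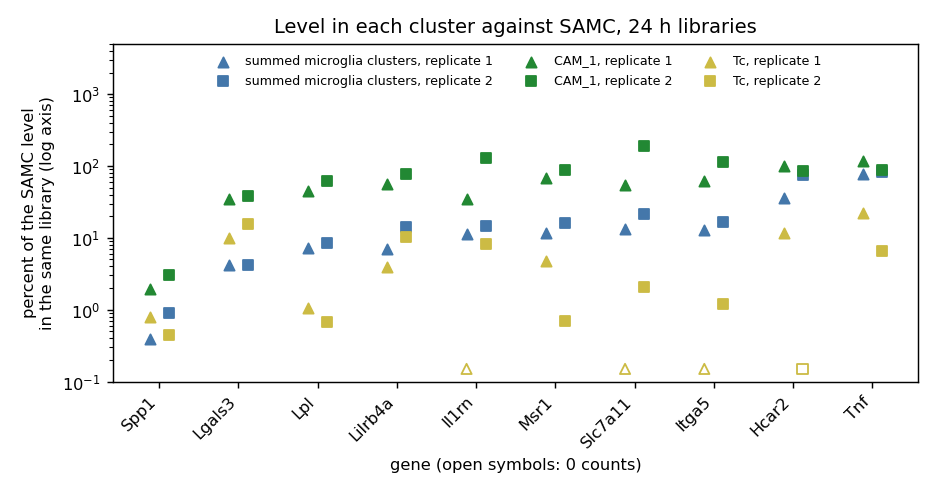
Level of 10 shared genes in the summed microglia, CAM_1 and Tc as percent of the level in SAMC of the same library (log axis), for replicate 1 and replicate 2, with open symbols at 0 counts. Spp1 lies below 1% in both the summed microglia and Tc, while Lpl, Tnf, Slc7a11 and Itga5 lie higher in the summed microglia than in Tc.

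Levels relative to SAMC differed between genes. Relative to SAMC of the same library, on the library size scale, Spp1 stood at 0.396% and 0.906% in the summed microglia of replicates 1 and 2 and at 0.798% and 0.447% in Tc, lower in microglia than in Tc in replicate 1 and higher in replicate 2. Lpl stood at 7.27% and 8.59% in microglia and at 1.06% and 0.685% in Tc. Slc7a11 stood at 13.1% and 21.7% against 0% and 2.08%, Itga5 at 12.7% and 16.6% against 0% and 1.20%, and Tnf at 77.2% and 82.3% against 22.5% and 6.60%. These 4 genes were at several times the Spp1 percent in the summed microglia of both libraries and above their own Tc percent. For Lpl the sum was carried mostly by Micro_3, at 31.1% and 20.7%. Micro_1 stood at 1.13% and 3.42% and Micro_2 at 1.39% and 4.66%, both near Tc in replicate 1. Lgals3 lay below its own Tc percent, at 4.13% and 4.21% in microglia and 9.99% and 15.8% in Tc. Lilrb4a lay close to its own, at 7.09% and 14% in microglia and 3.97% and 10.3% in Tc. Both genes were also present in Tc of the control, as given below for Tc, so their Tc percents cannot gauge RNA from SAMC. The part of free RNA was not tested for any of these genes. The Tc percents of Lpl, Slc7a11, Itga5 and Tnf rest on few UMIs, above all in replicate 1. Tc held 44733 UMIs in all there, and 1 UMI stands for 22.4 CPM. In replicate 1 the distance of these genes from Tc is therefore not firm.

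Lpl encodes lipoprotein lipase, which frees fatty acids from lipoproteins. In the summed microglia it stood at 7.72, 161 and 192 CPM (20.9-fold and 24.9-fold the control in replicates 1 and 2), and most of it was in Micro_3, at 19.1, 684 and 491 CPM. In CAM_1 it stood at 48.5, 1032 and 1477 CPM. Msr1, a scavenger receptor for modified lipoproteins, stood at 2.94, 56.8 and 71.7 CPM in the summed microglia and 8.93, 172 and 180.2 in Micro_3. In CAM_1 Msr1 had 0 control UMIs and stood at 0, 341 and 409 CPM, at least 37.6-fold and 45.0-fold higher in replicates 1 and 2 against a floor of 3 counts in the control library. Lgals3, the galectin of phagocytes, stood at 5.89, 3969.6 and 2033 CPM in CAM_2 and was the 1 gene DESeq2 called there (log2 9.02, SE 1.75, adjusted p = 0.00119). Both 24 h libraries lay above the control for Lpl, Msr1 and Lgals3 in these clusters.

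Tnf, the gene of tumor necrosis factor, stood at 44.0, 162 and 459 CPM in the summed microglia, 98.3, 448 and 1056 in Micro_3, 84.8, 253 and 510.0 in CAM_1 and 75.6, 336 and 186 in Macro_2. Il1rn, whose product blocks the interleukin 1 receptor, had 0, 384 and 49 UMIs in the summed microglia. Of the 384 in replicate 1, 364 were in Micro_3, where the level was 0, 383 and 69.9 CPM, above a floor of 3 control counts in both 24 h libraries. Il1rn also had 0 control UMIs in CAM_1, CAM_2 and Macro_2, and stood at 0, 262 and 206, at 0, 184 and 129 and at 0, 1114 and 49.6 CPM there. The Macro_2 control held only 61923 UMIs, and the 49.6 CPM of replicate 2 lay below a floor of 3 control counts. Hcar2, a receptor for hydroxybutyrate and niacin, stood at 2.39, 70.7 and 34.7 CPM in the summed microglia. Lilrb4a, an inhibitory immunoglobulin-like receptor whose reads a near copy, Lilr4b, can share, stood at 4.05, 252 and 45.6 CPM there.

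Slc7a11 stood at 5.89, 48.4 and 32 CPM in the summed microglia. Itga5, the alpha chain of a fibronectin receptor, stood at 11.8, 55.3 and 42.4 CPM and Flna, the actin crosslinker filamin A, at 5.70, 14.1 and 85.8 CPM. All 3 were above the control in both 24 h libraries. Fn1, fibronectin itself, had only 2, 25 and 108 UMIs. The 3 noncoding transcripts lie next to each other on chromosome 17 of GRCm38, Gm26917 at 39843013 to 39846341 and Gm42418 at 39846958 to 39848788 on the plus strand, and AY036118 at 39847113 to 39848035 on the minus strand inside Gm42418. Gm42418 stood at 10.1, 46.0 and 3309 CPM, with most of the distance between the 24 h libraries rather than between replicate 1 and the control, and it was higher in 5 clusters, or 6 under library size scaling. Reads of Gm42418 and AY036118 overlap, so these transcripts are uncertain.

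**Figure D4:**
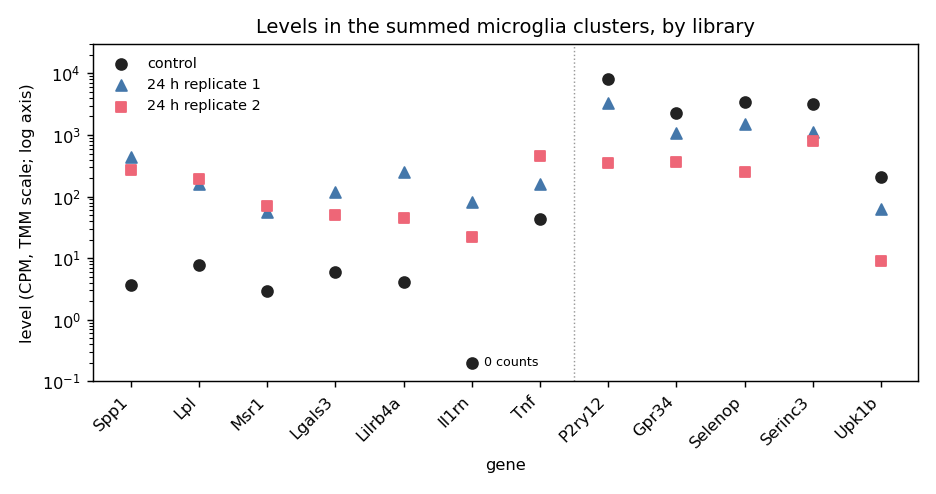
Level (CPM on the TMM scale, log axis) of 12 shared genes in the summed microglia clusters, with 1 point for the control, replicate 1 and replicate 2 each and 0 counts drawn at the foot of the axis. Both 24 h points lie above the control for the 7 genes from Spp1 to Tnf and below it for the 5 genes from P2ry12 to Upk1b.

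The genes that were lower in the most clusters are led by genes of resting microglia. P2ry12 stood at 10012, 4748 and 478 CPM in Micro_1, 6649.6, 1688 and 263 in Micro_3, 5818, 614 and 116 in CAM_1 and 6982, 598 and 73.7 in CAM_2. In the summed microglia it stood at 8149.8, 3353 and 349 CPM, 2.43-fold and 23.3-fold below the control in replicates 1 and 2. DESeq2 called P2ry12 lower in CAM_1 (log2 -4.00, SE 1.11, adjusted p = 0.0435) and in no other cluster. Gpr34, a lysophospholipid receptor of microglia, stood at 2255, 1066 and 365 CPM in the summed microglia, and Selenop, a secreted selenium carrier, at 3438, 1488 and 253 CPM. Both were lower in both 24 h libraries and lowest in replicate 2. Serinc3, a membrane protein, stood at 3223, 1114 and 805 CPM and Upk1b, a tetraspanin, at 206, 62.5 and 9.13 CPM. Glul, the glutamine synthetase, stood at 6265, 3964 and 540.0 CPM, less than 2-fold lower in replicate 1 there. Under library size scaling P2ry12 was lower in 6 of the 7 clusters, Selenop and Gpr34 in 5 and Hnmt, the histamine methyltransferase, in 3.

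P2ry12 was also detected in T cells. T cells are not expected to express P2ry12 at a microglial level, yet it was found in 45.2%, 12.1% and 4.51% of Tc cells, at 639, 113 and 46.0 CPM from 20, 4 and 7 UMIs. The 7 microglia markers together summed to 1885, 805 and 574 CPM in Tc. Selenop was found in 38.7%, 24.2% and 9.77% of Tc cells. In Macro_2 P2ry12 was found in 37.1%, 7.14% and 11.8% of cells, a share like that in Tc in the control. In Tc, Macro_2, CAM_1 and CAM_2, where microglia markers were lower in both 24 h libraries too, the part of free microglial RNA or of a changed mix of cells was not tested.

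Promoter sequence was looked up for the shared genes in RefSeq (GRCm38), for 8 of the 15 higher and 8 of the 10 lower genes. The 250 bases before the start of 3 genes that the shared pattern turns on are shown: Il1rn, with 0 control UMIs in microglia, Tnf, and P2ry12, the lower gene. Capitals mark an AP-1 motif (TGANTCA) in Il1rn, at −141 to −135 from the start, and an E-box (CACGTG) in P2ry12, at −228 to −223. Il1rn has several listed starts, of which the most upstream is shown, and the windows of its other starts held no AP-1 motif. The windows are Il1rn chr2:24336610-24336859 on the plus strand, Tnf chr17:35202008-35202257 on the minus strand and P2ry12 chr3:59262986-59263235 on the minus strand.
Il1rn: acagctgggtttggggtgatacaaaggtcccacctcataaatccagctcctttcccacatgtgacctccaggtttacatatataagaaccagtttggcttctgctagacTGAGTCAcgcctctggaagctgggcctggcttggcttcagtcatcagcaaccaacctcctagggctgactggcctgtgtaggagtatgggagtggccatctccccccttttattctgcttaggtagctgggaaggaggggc
Tnf: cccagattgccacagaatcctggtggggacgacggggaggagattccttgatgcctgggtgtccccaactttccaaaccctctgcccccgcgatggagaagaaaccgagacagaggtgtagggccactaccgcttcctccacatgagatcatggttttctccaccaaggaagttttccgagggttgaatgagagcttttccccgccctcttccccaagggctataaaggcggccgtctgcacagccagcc
P2ry12: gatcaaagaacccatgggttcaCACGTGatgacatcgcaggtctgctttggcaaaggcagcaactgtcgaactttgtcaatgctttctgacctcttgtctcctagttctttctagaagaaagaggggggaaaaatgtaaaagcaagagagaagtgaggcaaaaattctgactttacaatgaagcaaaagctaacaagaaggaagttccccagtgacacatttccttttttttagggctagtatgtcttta

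Both strands were searched for these motifs and for the NF-kappaB consensus, and no match overlapped another. Among 32851 promoter windows, 6.749% held the AP-1 motif, 6.021% the E-box and 3.899% the NF-kappaB motif. Of the 11 windows of the higher genes 1 held AP-1, 1 held NF-kappaB (that of Flna) and 0 the E-box. Of the 10 windows of the lower genes, 0 held AP-1, 0 NF-kappaB and 1 the E-box. The matches describe the letters of these windows and nothing else.

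In the summed microglia the gene lists gave the following counts of genes at least 2-fold from the control in both 24 h libraries. Of 23 lipid and disease-associated genes 9 were higher and 0 lower (Lpl, Fabp5, Plin2, Spp1, Lgals3, Csf1, Igf1, Ch25h and Msr1), with median log2 ratios of 0.91 and 2.36 in replicates 1 and 2 against 0.00 and 0.04 over all genes. Of 28 cytokine and NF-kappaB feedback genes 7 were higher and 0 lower (Tnf, Il1b, Il1rn, Il12b, Tnip3, Bcl3 and Ptgs2), with medians of 0.51 and 0.70. Of 19 growth factor and repair genes 6 were higher and 0 lower (Igf1, Gdf15, Mmp12, Adam8, Thbs1 and Fn1). Of 24 homeostatic genes 0 were higher and 3 lower (P2ry12, Sparc and Gpr34), with medians of -0.57 and -0.89, and 1 was lower under library size scaling. In Micro_1 1 of 24 homeostatic genes was lower in both libraries and in Micro_2 2 of 24, and in replicate 2 the ratio of 9 and of 10 of the 24 lay above the control. Cx3cr1, the fractalkine receptor, stood at 2248, 2014 and 2590.3 CPM in the summed microglia and Sall1, a transcription factor of microglia, at 58.9, 41.3 and 146 CPM, both below the control in replicate 1 and above it in replicate 2.

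The remaining lists are given for the summed microglia by their counts, beside 3.2% of all genes higher and 0.662% lower. Of 28 interferon response genes 5 were higher (Oasl1, Rsad2, Ifi204, Ifi207 and Slfn2), of 24 cytoskeleton and motility genes 5 (Vim, S100a6, S100a11, Cd44 and Itga5), of 22 iron and oxidant defence genes 3 (Tfrc, Slc7a11 and Srxn1) and of 14 chemokines 2 (Cxcl2 and Cxcl14), with 0 lower in each. The chemokines with the highest level were near the 2-fold limit, Ccl4 at 2978, 5812 and 5909.5 CPM and Ccl3 at 1965, 4319 and 2725. No member was 2-fold away in both libraries among 18 heat shock, 13 MHC class I, 8 MHC class II, 23 glycolysis, 24 lysosomal and 46 ribosomal protein genes. Cst3, a secreted protease inhibitor of the homeostatic list, stood at 52219, 27424 and 10711 CPM, under 2-fold from the control in replicate 1. Of 27 immediate early genes Fosl1 and Ier3 were higher and 0 lower, and Jun stood at 12601, 13733 and 12061 CPM, near the control in both 24 h libraries. Of 11 complement genes 1 was higher (C4b), of 16 cell cycle genes 2 (Mcm2 and Ccnd2) and of 19 sterol synthesis genes 2, with 0 lower in each. Mitochondrially encoded genes, 0 of 13 away in both libraries, had medians of -0.28 and 2.04 and so stood high in replicate 2 alone.

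Micro_3 held most of the Lpl and Il1rn UMIs of microglia in both 24 h libraries. Over all its genes 5.88% were higher and 2.82% lower in both libraries. Of the 22 lipid and disease-associated genes tested there 11 were higher and 0 lower, with median log2 ratios of 1.32 and 1.80, and of 27 cytokine genes 7 were higher and 0 lower, with medians of 0.64 and 0.57. Of 24 homeostatic genes 7 were lower and 0 higher (5 lower under library size scaling), with medians of -0.84 and -1.10. The genes with the highest ratios were at or near 0 UMIs in the control. Lilr4b, the near copy of Lilrb4a, had 0, 373 and 105 UMIs in the control, replicate 1 and replicate 2. Mmp12, an elastase of macrophages, had 1, 141 and 96, Adam8, a surface protease, had 0, 69 and 40, and Ch25h, the cholesterol 25-hydroxylase, had 0, 78 and 21. DESeq2 called 13 genes in Micro_3, among them Lpl (log2 4.92, SE 1.01, adjusted p = 0.00163), Cxcl2, a neutrophil attractant (log2 4.69, SE 1.03, adjusted p = 0.00444), and Msr1 (log2 4.28, SE 1.15, adjusted p = 0.0422).

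The change in Micro_3 was also tested against the change in Micro_1 and Micro_2 summed, with the library as a block, in an edgeR fit added after the data were seen. It called 25 of 9605 genes (0.26%), 21 with a more positive log2 change in Micro_3 and 4 with a more negative one, and all 25 had the same sign in both 24 h libraries. Dab2, a clathrin adaptor for endocytosis, differed by 3.13 on the log2 scale (SE 0.55, adjusted p = 6.62e-05), with 7.66, 199 and 235 CPM in Micro_3 and 13.3, 32.3 and 53.0 in the other clusters. Cxcl2 differed by 2.57 on the log2 scale (SE 0.46, adjusted p = 6.62e-05), with 17.9, 548 and 388 CPM against 15.2, 52.6 and 81.7. Slc7a11 differed by 3.59 on the log2 scale (SE 0.70, adjusted p = 0.000549), with 5.10, 174 and 101 CPM against 5.99, 16.3 and 9.58. For these 3 genes the level in Micro_3 of both 24 h libraries lay above that in Micro_1 and Micro_2, and the control of Micro_3 lay low. Ccl9, a chemokine, differed by 1.71 on the log2 scale (SE 0.30, adjusted p = 6.62e-05) and Cd14, the coreceptor for endotoxin, by 1.49 on the log2 scale (SE 0.27, adjusted p = 9.21e-05). Ptgs2, the inducible cyclooxygenase, differed by 4.58 on the log2 scale (SE 1.17, adjusted p = 0.0441), with 1.28, 33.7 and 110.3 CPM against 2.35, 2.40 and 7.66. These calls were not stable, since DESeq2 called 0 genes and 2 were called in cells with at least 1000 UMIs. The authors clustered control and stroke cells together by expression, so responding cells may have moved between these clusters. Micro_3 held 506, 469 and 283 cells in the control, replicate 1 and replicate 2. Such a move cannot be told apart from a change within Micro_3 cells.

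The change in CAM_1, CAM_2, Macro_2 and Tc was tested against that of the summed microglia in the same way, and CAM_1 had the most genes called. Genes deep enough in microglia alone entered these tests too. In CAM_1, CAM_2, Macro_2 and Tc by themselves 6585, 4447, 3236 and 973 genes were tested. The percentages called in the interaction tests are therefore taken over many genes with few counts in the cluster. The edgeR interaction test, with the library as a block and 1 residual degree of freedom, called 73 of 10283 genes (0.71%), 18 with a more positive log2 change in CAM_1 and 55 with a more negative one, and 72 of them had the same sign in both 24 h libraries. DESeq2 called 31 genes, and edgeR without a filter on low counts called 30. CAM_1, which carried microglia markers, held 221, 648 and 165 cells, so cells may have moved between it and the microglia clusters. Its border macrophage markers summed to 49.8, 8.66 and 645 CPM, high in replicate 2 alone. Neither such a move nor a changed mix of cells can be told apart from a change within its cells. The genes with a more positive change in CAM_1 included phagocyte and metabolic genes. Cd14 stood at 1160.5, 12627 and 2921 CPM in CAM_1 and 875, 2396 and 557 in microglia, a difference of 1.94 on the log2 scale (SE 0.40, adjusted p = 0.00262). Pkm, the pyruvate kinase of glycolysis, stood at 227, 1638 and 652 CPM against 269, 399 and 236, a difference of 1.98 on the log2 scale (SE 0.39, adjusted p = 0.00196). Both genes were close between the clusters in the control and apart in both 24 h libraries. Dab2 differed by 2.91 on the log2 scale (SE 0.63, adjusted p = 0.00369), at 15.1, 509 and 1129 CPM against 12.5, 66.4 and 96.3. Plin2, which coats lipid droplets, differed by 1.88 on the log2 scale (SE 0.43, adjusted p = 0.00672), at 81.8, 828 and 555 CPM against 62.3, 145 and 133. Rnf149, a ubiquitin ligase, differed by 3.67 on the log2 scale (SE 0.76, adjusted p = 0.00262), but on 6.06 CPM in CAM_1 of the control.

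The genes with a more negative change in CAM_1 were led by Ramp1, which forms the receptor for calcitonin gene-related peptide. It stood at 106, 5.0 and 0 CPM in CAM_1 and 60.3, 32.8 and 13.2 in microglia, a difference of -3.59 on the log2 scale (SE 0.62, adjusted p = 6.06e-05). Upk1b differed by -2.48 on the log2 scale (SE 0.52, adjusted p = 0.00284), Gpr34 by -1.56 on the log2 scale (SE 0.39, adjusted p = 0.0214) and P2ry12 by -1.67 on the log2 scale (SE 0.41, adjusted p = 0.0165). P2ry12 and Upk1b were lower at 24 h in microglia as well, and lay further below the control in CAM_1 in both libraries. Ddit4, a stress-induced inhibitor of growth signalling, stood at 142, 40.0 and 3.75 CPM against 178, 235 and 40.2, a difference of -2.24 on the log2 scale (SE 0.45, adjusted p = 0.00196). Jun stood at 13171, 5481 and 4541 CPM against 12601, 13733 and 12061, a difference of -1.48 on the log2 scale (SE 0.41, adjusted p = 0.0469). In microglia Jun was near the control in both 24 h libraries, and in CAM_1 it was below it in both. Other immediate early and stress genes called the same way were Junb (log2 -1.51, SE 0.41, adjusted p = 0.0372), Klf2 (log2 -1.48, SE 0.40, adjusted p = 0.0409), Ier2 (log2 -1.70, SE 0.39, adjusted p = 0.00672) and Dnajb1 (log2 -1.77, SE 0.39, adjusted p = 0.00493).

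**Figure D5:**
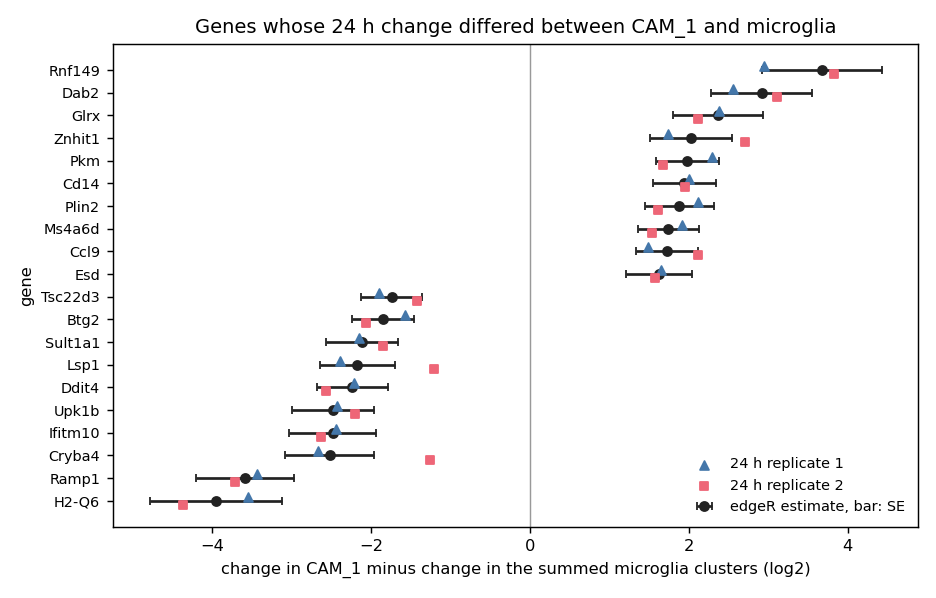
Log2 change from the control in CAM_1 minus that in the summed microglia, for the 10 genes of lowest p in each direction among those the interaction test called, with points for the edgeR estimate (bar: SE), replicate 1 and replicate 2. Cd14, Pkm and Dab2 lie above 0 and Ramp1, Ddit4 and Upk1b below it in both libraries.

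By lists, CAM_1 had 13 of 24 homeostatic genes lower and 0 higher in both libraries (10 lower under library size scaling), with median log2 ratios of -1.10 and -1.78, against 5.95% lower and 7.94% higher over all genes. Of 24 immediate early genes 8 were lower (Fos, Jun, Junb, Egr2, Ier5, Dusp1, Klf2 and Btg2) and 1 higher (Ier3), or 6 and 1 under library size scaling. Of 22 lipid genes 10 were higher and 2 lower, with medians of 1.28 and 2.46, and of 17 growth factor and repair genes 8 were higher and 0 lower. Of 46 ribosomal protein genes 12 were higher and 0 lower. The medians over all CAM_1 genes were 0.01 and 0.01. Mmp12 had 0, 785 and 50 UMIs and Rab7b, a GTPase of late endosomes, had 0, 145 and 38. DESeq2 called 17 genes in CAM_1, 16 of them higher, among them Mmp12 (log2 9.38, SE 2.32, adjusted p = 0.0130), Adam8 (log2 6.24, SE 1.46, adjusted p = 0.00714) and the cytokine gene Csf1 (log2 3.93, SE 1.10, adjusted p = 0.0492).

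In CAM_2 resting microglia genes were lower and iron and oxidant defence genes were higher. Of 24 homeostatic genes 16 were lower and 0 higher in both libraries (13 lower under library size scaling), with medians of -1.27 and -2.06 against −0.01 and 0.06 over all genes, of which 8.59% were higher and 6.9% lower. Of 20 iron and oxidant defence genes 12 were higher and 0 lower, with medians of 1.88 and 1.77. This was not particular to CAM_2. In CAM_1 8 of 22 were higher and 1 lower (medians 0.83 and 0.85), against 7.94% higher over all its genes. In Macro_2 6 of 18 were higher and 1 lower (medians 1.64 and 0.75), against 14.8%. In CAM_2 Fth1, the heavy chain of ferritin, stood at 3779, 23730.1 and 12326 CPM, Mt1, a metallothionein, at 341, 1601 and 755 and Hmox1, which degrades heme, at 64.8, 249.6 and 368. All 3 lay above the control in both libraries. Of 20 lipid genes 9 were higher and 1 lower (Trem2), with Plin2 at 35.3, 1318 and 780.0 CPM and Gpnmb, a lysosomal glycoprotein, at 0, 87.7 and 221. The red blood cell markers summed to 0, 0 and 2237 CPM in CAM_2, and the part of red cell RNA in these values was not tested. In the interaction test against microglia, edgeR called 0 of 9892 genes (0%) in CAM_2, and DESeq2 called 0. In the edgeR test 486 genes had an unadjusted p under 0.05. Only 4447 genes were deep enough to be tested in CAM_2 alone, and genes with few counts there rarely reach a small p. That number therefore cannot be read against the share of 0.05 expected with no change. The lowest adjusted p was 0.169, which does not show that CAM_2 changed like microglia. Monocyte markers summed to 0, 12.5 and 524 CPM in CAM_2 and border macrophage markers to 20.4, 18.7 and 812, both high in replicate 2 alone. A changed mix of cells in CAM_2 cannot be told apart from a change within cells.

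In Macro_2 both interferon response genes and homeostatic microglia genes had members below the control. Of 21 interferon response genes 10 were lower and 0 higher in both libraries, with median log2 ratios of -2.22 and -0.73 against 0.13 and 0.17 over all genes, and the counts were the same under library size scaling. Of 18 homeostatic microglia genes 9 were lower and 0 higher, with medians of -1.61 and -1.50, or 8 lower and 1 higher under library size scaling. Over all Macro_2 genes 14.8% were higher and 7.32% lower. Ifit3, an antiviral effector, stood at 264, 26.4 and 29.7 CPM and Rtp4, another interferon target, at 302, 0 and 32.2. Of 18 glycolysis and hypoxia genes 8 were higher and 1 lower (P4ha1), with medians of 1.55 and 1.08. They include Slc2a1, the glucose transporter, Gapdh, Pgk1, Slc16a3, the lactate exporter, and Vegfa, the angiogenic factor. Of 22 immediate early genes 4 were lower (Jun, Egr2, Dusp1 and Klf2, all lower in CAM_1 too) and 2 higher, with medians of -0.75 and -0.26. Under library size scaling 3 were lower and 3 higher. Of 14 growth factor and repair genes 7 were higher and 0 lower, and of 25 cytokine genes 7 were higher and 1 lower, against the same 14.8% and 7.32% over all genes. Clec4e, a receptor for dead cells and microbes, had 0, 82 and 88 UMIs and Prdx6, a peroxidase, had 0, 42 and 84. The complement genes C1qa, C1qb and C1qc were lower in both libraries, and of 9 MHC class II genes 3 were lower (H2-Aa, H2-Ab1 and Cd74), or 0 under library size scaling. The control held 35 cells in Macro_2, and the border macrophage markers, which summed to 1098, 215 and 538 CPM, and the microglia markers, at 3940.4, 1421 and 957 CPM, were lower in both 24 h libraries as well, so that a changed mix of cells cannot be told apart from a change within cells.

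Against microglia, the interaction test called 2 of 9869 genes in Macro_2 (0.0203%), both with a more negative change, and DESeq2 called 12. Mmp12 stood at 283, 514 and 32.2 CPM in Macro_2 and 0.368, 35.8 and 48.4 in microglia, a difference of -7.18 on the log2 scale (SE 1.26, adjusted p = 0.000257). Spp1 stood at 246, 976 and 151 CPM against 3.68, 444 and 273, a difference of -5.54 on the log2 scale (SE 1.18, adjusted p = 0.0119). For both genes Macro_2 was already high in the control, and microglia had 2 and 20 control UMIs.

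Tc was the shallowest cluster compared, with 31, 33 and 133 cells and 973 genes tested. Spp1 and Gm26917 led its 49 higher genes together with Ddx3x, an RNA helicase (0, 4 and 88 UMIs), Myh9, a nonmuscle myosin (0, 4 and 200), and Macf1, a cytoskeletal linker (0, 3 and 145), the last 3 with 0 control UMIs and 3 or 4 in replicate 1. Of 16 immediate early genes 3 were higher and 0 lower (Fosb, Jun and Klf4), or 3 higher and 1 lower under library size scaling, against 5.04% higher and 3.49% lower over all Tc genes. Irf7, a regulator of interferon, stood at 351, 56.3 and 65.7 CPM and Ifi206 at 383, 56.3 and 65.7 CPM, below the control in both 24 h libraries. In the interaction test against microglia, 2 of 9951 genes were called (0.0201%), both with a more negative change in Tc: Lgals3 by -4.00 on the log2 scale (SE 0.89, adjusted p = 0.0440) and Lilrb4a by -5.60 on the log2 scale (SE 1.26, adjusted p = 0.0440). Lgals3 stood at 447, 338 and 401 CPM in Tc and Lilrb4a at 192, 169 and 72.2 CPM, with the control near the 24 h libraries or above them, so that neither followed the higher level seen in microglia. DESeq2, the unfiltered fit and cells with at least 1000 UMIs gave 0 calls each in Tc. On the library size scale the T cell markers summed to 6698, 6461 and 2972 CPM in Tc. The 4 NK cell markers (Nkg7, Gzma, Klrb1c and Ncr1) summed to 3622, 3912 and 1070 CPM. Both sums were lower in replicate 2, and a changed mix of cells in Tc cannot be told apart from a change within cells.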

How the data were processed

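Brain parenchyma leukocytes of 1 control and 2 stroke libraries (24 h) were profiled by droplet single-cell RNA-seq. The authors aligned the reads with Cell Ranger 6.0 to mm10 per the labels and removed doublets with scDblFinder. They normalized with SCTransform, aligned the cells of the libraries with Harmony and clustered in Seurat. Raw UMI counts and hand-named clusters were deposited. Counts were summed here per library and cluster over the 30406 genes that the gene lists share by Ensembl identifier, which left out 0.407 to 0.467% of UMIs. Clusters with at least 30 cells in each library were compared. edgeR 4.0.16 in R 4.3.3 (filterByExpr, TMM, robust quasi-likelihood fit) was used with a Benjamini-Hochberg adjusted p under 0.05 and at least 2-fold as the call. DESeq2 1.42.0 was an alternative. Levels of genes are CPM, counts per 1000000 UMIs of the genes tested in the cluster, on the TMM scale. Levels in clusters with few genes tested, above all Tc, therefore stand too high beside those of microglia. Marker sums, SAMC levels and percentages of SAMC are over all shared genes, on the library size scale. Ratios per library add 0.5 counts. The intervals of cell shares are exact binomial (95%) and cover counting error only. Scripts were tested on simulated data.

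Genes are named if they reached 50 CPM in a library of the cluster: the 15 higher and 10 lower in the most clusters, the 5 highest and lowest per cluster, the 3 with the lowest p in each direction per interaction, and the 4 most abundant members of each list. Others are named from the lists or calls after their values were seen. The comparison, members and gene lists were chosen with earlier results of these data known. The p-values measure only the spread between libraries, which may be technical.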

Additional observations from a re-analysis of the deposited data

Results flagged for a closer look

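Interaction tests by edgeR, each with the library as a block and 1 residual degree of freedom, showed a difference between a cluster and the summed microglia clusters in the change from control to 24 h for the following genes, as log2 differences with SE. In CAM_1 the change was more positive for Pkm (log2 1.98, SE 0.39, adjusted p = 0.00196), Rnf149 (log2 3.67, SE 0.76, adjusted p = 0.00262) and Cd14 (log2 1.94, SE 0.40, adjusted p = 0.00262). It was more negative for Ramp1 (log2 -3.59, SE 0.62, adjusted p = 6.06e-05), Ddit4 (log2 -2.24, SE 0.45, adjusted p = 0.00196) and Upk1b (log2 -2.48, SE 0.52, adjusted p = 0.00284). In Macro_2 it was more negative for Mmp12 (log2 -7.18, SE 1.26, adjusted p = 0.000257) and Spp1 (log2 -5.54, SE 1.18, adjusted p = 0.0119), and in Tc for Lgals3 (log2 -4.00, SE 0.89, adjusted p = 0.0440) and Lilrb4a (log2 -5.60, SE 1.26, adjusted p = 0.0440). Each of these 10 differences was of the same sign in both 24 h libraries. A move of cells between CAM_1 and the microglia clusters cannot be told apart from a change within cells. The same holds for a changed mix of cells in CAM_1, whose border macrophage markers were high in replicate 2 alone. The 24 h group has 2 libraries and the control 1, so no group was large enough to look for a library far from the others of its group.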

How the results depend on the processing

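No paired analysis was possible because the control group has 1 library. The balance of higher and lower genes turned in Tc, from 49 and 34 to 42 and 48 on library size and 98 and 108 without replicate 2, and in Micro_1, from 191 and 58 to 522 and 761 without the filter on low counts. It kept its side in the other clusters. DESeq2 called 1 gene in Micro_1, 1 in Micro_2, 13 in Micro_3, 17 in CAM_1, 1 in CAM_2 and 11 in the summed microglia where edgeR called 0, and edgeR on library size scaling called 3 in Micro_3, 8 in CAM_2 and 3 in the summed microglia. With cells of at least 1000 UMIs edgeR called 3 in Micro_3. Without a filter on low counts the number of genes 2-fold away in both libraries was 1283 (Micro_1), 1374 (Micro_2), 1825 (Micro_3), 2382 (CAM_1), 2504 (CAM_2), 3714 (Macro_2), 2256 (Tc) and 1552 (summed microglia), and at 4-fold it was 39, 58, 161, 254, 167, 254, 24 and 101 in the same order. With 1 of the 24 h libraries left out the number of 2-fold genes ran from 553 to 5283 in Micro_1, 807 to 5270 in Micro_2, 1445 to 4310 in Micro_3, 1756 to 3654 in CAM_1, 1267 to 2305 in CAM_2, 1340 to 1630 in Macro_2, 206 to 459 in Tc and 800 to 5894 in the summed microglia. The higher value in each case is without replicate 1, and such a count rests on a single library. Interaction calls were 31 by DESeq2 and 30 without the filter in CAM_1, 12 by DESeq2, 8 on library size and 8 in cells of at least 1000 UMIs in Macro_2, and in Tc 0 by DESeq2, 5 on library size, 0 without the filter and 0 at 1000 UMIs. In Micro_3 they were 0 by DESeq2, 16 without the filter and 2 at 1000 UMIs. No interaction fit was possible with a library left out, since no residual degree of freedom remains. The causes were not tested. Of 143 named results the sign was the same in 131 without replicate 1, 102 without replicate 2 and 134 on library size. With stress_Micro added to the summed microglia it was the same in 138 of 142. The sign compared with is that of the mean of both 24 h libraries, and many named genes were chosen for agreeing in both. The agreement with a library left out is thus partly fixed in advance and is no independent check. Depth limits Tc and Macro_2 most, with 31 and 35 control cells.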
